A study of Rattus norvegicus with 20 samples.

Results

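Methyl groups on the lysines and arginines of histones are written by methyltransferases and erased by demethylases. Most lysine methyltransferases carry a SET domain, arginine methyltransferases form the PRMT family, and demethylases are either amine oxidases such as Kdm1a or iron-dependent JmjC enzymes. Methylation of H3K4 marks promoters and enhancers, H3K36 methylation follows transcribed genes, and H3K9 and H3K27 methylation are associated with silent chromatin. In neurons, mutations of several of these enzymes are known causes of intellectual disability. Expression of these enzymes was examined in the mPFC (medial prefrontal cortex) of rats treated chronically with LSD, a serotonin receptor agonist, and of saline controls. Members were chosen by gene symbol, as the Kmt2, Kmt5, Setd, Kdm, Nsd, Ehmt, Suv39h, Ezh, Prdm, Jmjd, Prmt and Smyd series with *Ash1l*, *Carm1* and *Dot1l*. Of the 31038 symbols in the matrix, 79 matched, and 73 of them passed the read filter (5 reads or more in 10 or more of the 20 rats). They were divided into 50 methyltransferases and 22 demethylases by symbol. The remaining symbol, *Nsdhl*, belongs to a sterol enzyme that matches by spelling alone, and it was set aside (log2 fold change, log2FC, 0.04, adjusted p = 0.825 from the edgeR test described next).

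The 6 matching symbols that fell under the read filter were *Kdm4d*, *Kdm4dl2*, *Prmt6*, *Prdm12*, *Prdm13* and *Prdm14*. The closest of them was *Prdm12*, with 5 reads or more in 8 rats, and on the other side of the limit *Kdm6a* reached 5 reads in 17 rats and *Prdm9* in 19. The label of histone enzyme does not hold equally for all members. *Setd3*, *Setd6*, *Jmjd8* and most Prdm proteins are better known for other substrates or as zinc finger factors, and they are described under those names. *Nsd2* and *Nsd3* appear in the matrix under their older symbols *Whsc1* and *Whsc1l1*, and they are therefore described with the related genes.

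All rats were male Sprague-Dawley animals aged 6 to 8 weeks at the first injection according to the labels. The 10 LSD-treated rats received 0.16 mg/kg LSD intraperitoneally every other day for 90 days and the 10 controls received saline on the same schedule. The labels give 3 weeks without drug before collection, and the methods of the study state a longer interval and a higher age, in both cases the same for both groups. One library per rat was sequenced from whole tissue, so that fewer cells of a type and less RNA per cell cannot be told apart.

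Libraries of LSD-treated rats held 16346629 to 25552681 reads on genes and those of controls 11098076 to 24201351. Neuronal markers were abundant in all rats, and the 10 of them summed to between 8637 and 11500 RPM (reads per 1000000 reads on genes after TMM normalisation, the unit of all levels given here). Of these neuronal markers *Gad2* was higher (0.23, edgeR adjusted p = 0.0369) and *Tubb3* lower (-0.30, adjusted p = 0.0218). Markers of oligodendrocytes had a negative log2FC for 10 of 10 genes, with sums from 2451 to 6232 RPM in LSD-treated rats and from 2483 to 8090 RPM in controls, and 1 of the 10, *Cldn11*, passed the test. Sums of the 6 markers of oligodendrocyte precursors ranged from 310.3 to 435.2 RPM in LSD-treated rats and from 346.4 to 508.5 RPM in controls. By the test 2 of them were lower, *Olig1* (-0.32) and *Sox10* (-0.41). *Pdgfra* (0.05), *Gpr17* (-0.05), *Cspg4* (-0.16) and *Olig2* (-0.15) did not pass. The 10 astrocyte markers summed to between 4188 and 5059 RPM in LSD-treated rats and between 4528 and 5344 RPM in controls, with 1 gene higher and 1 lower. For microglia and endothelial cells no marker passed the edgeR test at the adjusted threshold, and 0 and 2 of them had an unadjusted p under 0.05. Of the 8 endothelial markers listed, 7 were tested, without *Slco1a4*. None of the marker genes of these cell types that have a row in the matrix was without reads in all rats. Their part in the differences between the enzymes was not tested. One control, replicate 9, was the lowest of its group in 29 of the 73 members (39.7%, against 16.2% of all genes), and values without it are given where they bear on a result.

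To ask which enzymes differed between LSD and Ctrl (control) rats, counts of all genes were compared in edgeR with its quasi-likelihood test, and Benjamini-Hochberg adjustment of the p-values ran over the 16605 genes past the filter. Among these genes 15.0% passed the threshold of 0.05, 6.48% higher and 8.54% lower in LSD-treated rats. Of the 73 members, 10 were up-regulated and 5 down-regulated, which is 20.5%, and 43 had a log2FC above 0, as did 50.4% of all genes tested. Methyltransferases held 5 up-regulated and 3 down-regulated genes of 50 (16.0%), with a median log2FC of 0.02 that did not keep its sign under the span correction (-0.0028), and demethylases held 5 and 2 of 22 (31.8%), with a median of 0.13. The median over all genes tested was 0.00. Other settings of the comparison changed these counts together with the background. With median-ratio size factors 9 members were higher and 5 lower, where 6.34% of all genes were higher and 8.47% lower. With scaling by total counts 15 members were higher and 3 lower, against 9.06% and 5.17% of all genes. Without a read filter 9 members were higher and 3 lower. This fit called 7.13% of its 25199 genes (3.81% higher and 3.32% lower), but 10.6% of the 16605 genes past the filter, to which all members belong. With a stricter filter 10 of 71 members were higher and 6 lower (18.6% of its 14242 genes, 8.10% higher and 10.5% lower). DESeq2 called 12 members higher and 7 lower (9.68% and 12.4% of the 14029 genes to which it gave an adjusted p). *Kdm6a*, *Prdm1* and *Prdm9* received no adjusted p from DESeq2. Replicate number as a block gave 10 higher and 5 lower (8.16% and 9.67% of all genes). The 5 up-regulated methyltransferases were all lysine enzymes (5 of 42, 11.9%) and the 3 down-regulated ones were all PRMTs (3 of 8), a difference between families that was not tested. Lysine methyltransferases were also called lower in some settings, *Ehmt2* and *Smyd5* with DESeq2, *Smyd5* with the stricter filter and *Ehmt2* with the replicate block. The groups of rats overlapped for each of the 73 members, as for all but 0.193% of the genes tested.

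**Figure D1:**
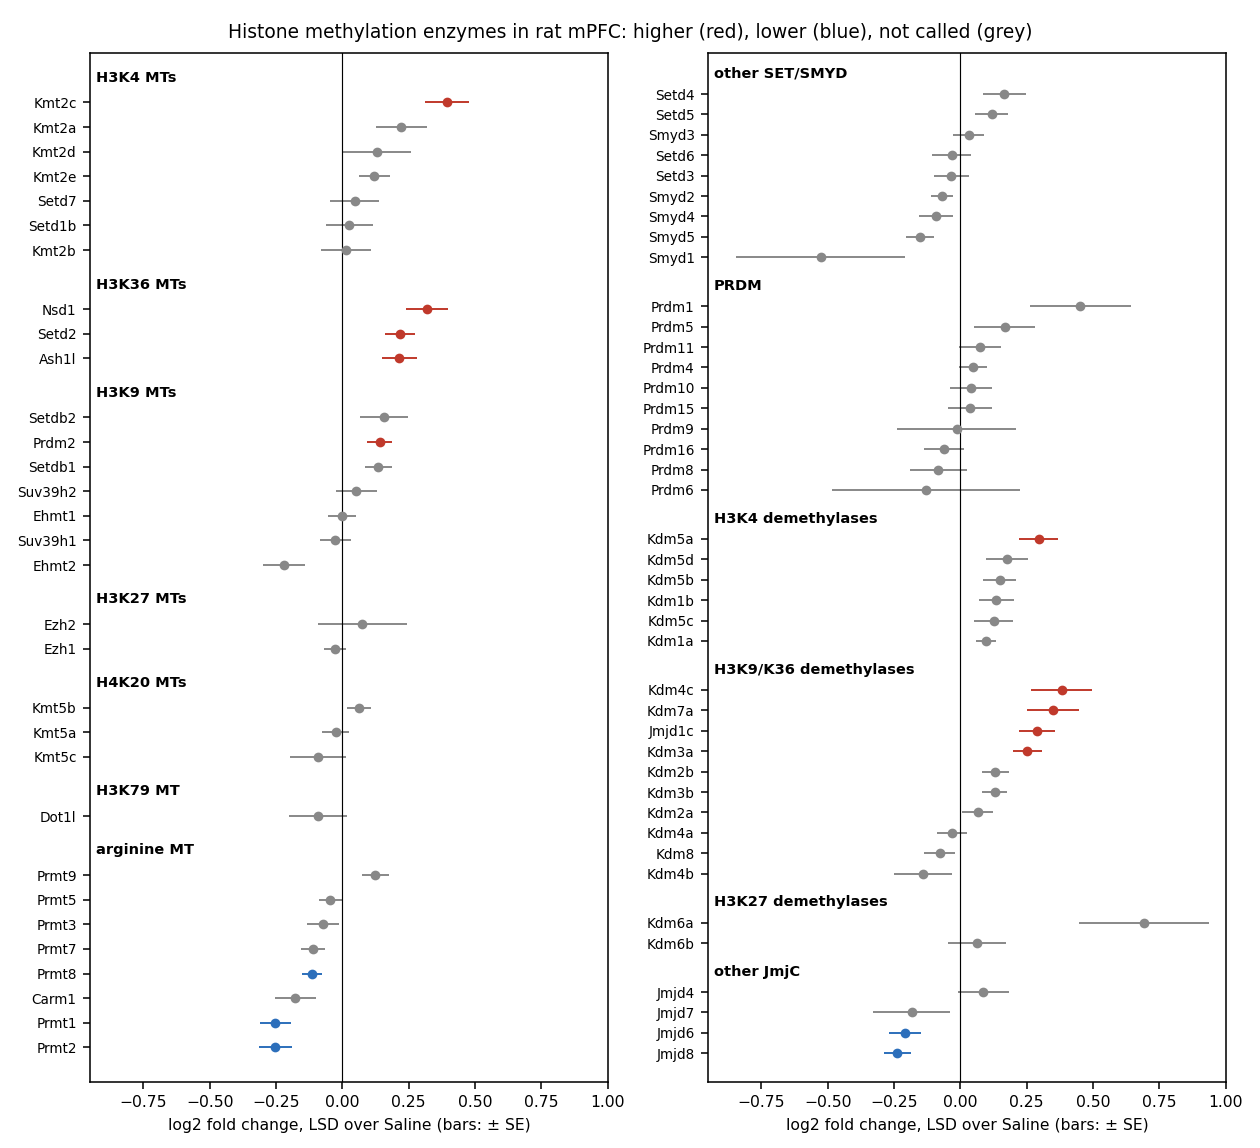
Log2 fold change (x axis, LSD over Saline, bars ± SE of the edgeR fit, 10 rats per group) of 72 enzymes, in rows grouped by the residue or family given in bold, where MT stands for methyltransferase. Red and blue points passed an adjusted p of 0.05, with 10 higher and 5 lower. All 3 enzymes grouped under H3K36 lie to the right of 0, whereas 7 of the 8 arginine enzymes lie to the left.

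The largest fold change among the called methyltransferases was that of *Kmt2c* (MLL3), which places H3K4 methylation at enhancers. Its level was 18.9 RPM in the lowest control, 30.4 in the median control and 35.5 in the highest, and in LSD-treated rats it ran from 35.4 through a median of 38.5 to 44.7 RPM. Thus 9 of the 10 LSD-treated rats lay above every control. Controls had a mean of 29.6 ± 4.93 RPM and LSD-treated rats one of 38.9 ± 3.01 (SD, n = 10), a log2FC of 0.39 (SE 0.083, edgeR adjusted p = 0.00676), or 31.5% more. Without control replicate 9, the lowest of all rats, it was 0.34 (adjusted p = 0.00513 in the same test). The other 6 H3K4 methyltransferases did not pass the test, although each had a positive log2FC (after the span correction 6 of all 7 did), from 0.01 for *Kmt2b* to 0.22 for *Kmt2a* (86.97 ± 17.2 RPM in controls and 101.3 ± 9.42 in LSD-treated rats, SD, n = 10, adjusted p = 0.119). *Kmt2d*, the closest relative of *Kmt2c*, had a log2FC of 0.13 with a SE of 0.13 (adjusted p = 0.528), and its lowest value, 81.3 RPM, was again that of control replicate 9.

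All 3 members grouped under H3K36 were up-regulated. Each member was placed in 1 group only, and the Smyd proteins and *Prdm9*, grouped elsewhere, held no call. *Nsd1*, which dimethylates H3K36 and is mutated in Sotos syndrome, ranged from 43.7 to 85.7 RPM in controls (median 69.1) and from 78.1 to 94.2 RPM in LSD-treated rats (median 84.1). All LSD-treated rats were above the control median and 4 were above the highest control. The log2FC of *Nsd1* was 0.32 (SE 0.078, adjusted p = 0.0117, edgeR), and it was 0.26 without control replicate 9 (adjusted p = 0.00889). *Setd2*, the enzyme that trimethylates H3K36 behind elongating RNA polymerase, ranged from 37.9 to 51.7 RPM in controls (median 45.0) and from 44.6 to 57.7 RPM in LSD-treated rats (median 53.7), with a log2FC of 0.22 (SE 0.056, adjusted p = 0.0155). *Ash1l*, a Trithorax-group dimethylase of the same residue, ranged from 128.9 to 189.0 RPM in controls (median 177.6) and from 174.1 to 217.4 RPM in LSD-treated rats (median 194.4), and 7 of the treated rats exceeded all controls. Its log2FC was 0.21 (SE 0.065, adjusted p = 0.0296). The call for *Ash1l* was lost without LSD replicate 4 (adjusted p = 0.0576), LSD replicate 8 (0.0612) or control replicate 4 (0.0603). Correction for the genomic span of genes, described further on, ended the calls of *Setd2* (0.13, adjusted p = 0.072) and *Ash1l* (0.13, adjusted p = 0.115) but not that of *Nsd1* (0.23, adjusted p = 0.0239, edgeR).

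Of the 7 members grouped under H3K9, 1 was up-regulated. *Prdm2* (RIZ1) rose from a control median of 91.6 RPM (range 88.8 to 110.9) to a median of 106.3 RPM (range 93.8 to 111.3), a log2FC of 0.14 (SE 0.047, adjusted p = 0.0435). This call held without LSD replicate 1, 2 or 10 or control replicate 7, 8 or 10 and was lost without any of the other 14 rats, with adjusted p-values up to 0.0774. After the span correction its log2FC was 0.05 (adjusted p = 0.488). *Ehmt2* (G9a) had 445.6 ± 66.7 RPM in controls and 382.8 ± 37.4 in LSD-treated rats (SD, n = 10), with a log2FC of -0.22 that did not pass (adjusted p = 0.0602), and all 10 LSD-treated rats lay below the control median. Its partner *Ehmt1* (GLP), with which it forms a heteromer, did not pass (SE of the log2FC 0.054, adjusted p = 0.991). *Setdb1*, which acts with Trim28 on retroelements, stood at 0.14 (adjusted p = 0.0794), and *Suv39h1*, which methylates pericentric heterochromatin, at -0.03 (adjusted p = 0.802).

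No methyltransferase of H3K27, H4K20 or H3K79 passed the test. *Ezh1*, the catalytic subunit of PRC2 in postmitotic cells, had 122.4 ± 7.0 RPM in controls and 120.1 ± 5.82 in LSD-treated rats (SD, n = 10), a log2FC of -0.03 (SE 0.042). *Ezh2*, the subunit of dividing cells, was counted with only 18 to 95 reads per rat, and at this depth its log2FC of 0.08 had a SE of 0.17. *Kmt5b*, which dimethylates H4K20, had a log2FC of 0.06 (adjusted p = 0.363), and *Dot1l*, the only H3K79 enzyme, of -0.09 (SE 0.11, adjusted p = 0.615). The 9 other SET and SMYD proteins and the 10 other Prdm proteins held no call either. In each of these lists 1 gene had an unadjusted p under 0.05, *Smyd5* and *Prdm1*, which are named after their values were seen. With DESeq2, *Smyd5* passed as lower and no Prdm protein of this list passed, although *Prdm1* and *Prdm9* received no adjusted p there.

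Arginine methyltransferases held calls in 1 direction. Of 8 members, 3 were down-regulated and none up-regulated, where 8.54% of all genes tested were lower and 6.48% higher. A negative log2FC was found for 7 of the 8 and for 8237 of all 16605 genes, and the median of the 8 was -0.11. *Prmt1*, the enzyme responsible for most asymmetric dimethylarginine in cells, ranged from 26.0 to 34.8 RPM in controls (median 29.3) and from 23.1 to 26.9 RPM in LSD-treated rats (median 25.6). Hence 6 of the 10 LSD-treated rats were below the lowest control. Its log2FC was -0.25 (SE 0.057, adjusted p = 0.00854, edgeR), or 16.0% less. *Prmt2*, a coactivator of nuclear receptors that methylates H3R8, ranged from 77.9 to 116.3 RPM in controls (median 91.2) and from 71.9 to 85.1 RPM in LSD-treated rats (median 76.3), with a log2FC of -0.25 (SE 0.062, adjusted p = 0.0118). *Prmt8*, a brain-restricted and membrane-anchored relative of *Prmt1*, changed least, from 87.9 ± 4.24 RPM in controls to 81.2 ± 3.46 in LSD-treated rats (SD, n = 10; log2FC -0.12, SE 0.039, adjusted p = 0.047), and 6 LSD-treated rats again lay below the lowest control. This last call held without LSD replicate 1 or 8 or control replicate 2 or 10 and was lost without any of the other 16 rats, with adjusted p-values up to 0.0889, and scaling by total counts ended it (adjusted p = 0.217).

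*Carm1* (PRMT4), which methylates H3R17, had 126.4 ± 18.2 RPM in controls and 111.8 ± 10.6 in LSD-treated rats (SD, n = 10), with a log2FC of -0.18 (adjusted p = 0.113). *Prmt7*, a monomethylase, stood at -0.11 (adjusted p = 0.109) and passed under the span correction, at -0.17 (adjusted p = 0.0423). *Prmt5*, the main source of symmetric dimethylarginine, had a log2FC of -0.05 (adjusted p = 0.522) and *Prmt9* one of 0.12 (adjusted p = 0.101, edgeR for all). The median of the 8 PRMTs was -0.11 with median-ratio size factors, -0.07 with total counts and -0.19 after the span correction, so that its sign was the same under each scaling although *Prmt5* took the opposite sign with total counts and after the span correction. *Prmt7* and *Prmt9* are named after their values were seen.

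**Figure D2:**
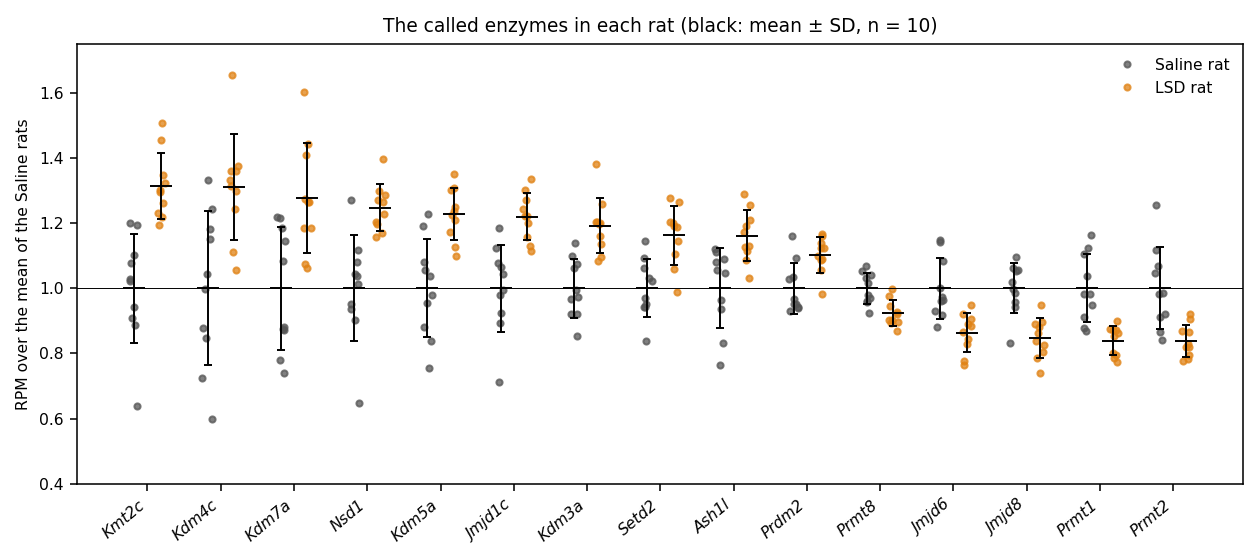
Levels of the 15 called enzymes in each rat (y axis, RPM divided by the mean of the Saline rats, on a linear axis that starts at 0.4), with Saline rats in grey and LSD rats in orange, and the mean ± SD of 10 rats in black. Genes run from the highest to the lowest fold change; for *Kmt2c* 9 LSD rats lie above all Saline rats, and the lowest Saline rat of *Kmt2c* and *Nsd1* is replicate 9.

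Demethylases of the Kdm series were higher or did not pass the test. Of 17 members, 4 were up-regulated and none down-regulated, where 6.48% of all genes tested were higher and 8.54% lower. A positive log2FC was found for 14 of the 17 and for 50.4% of all genes, and the median of the 17 was 0.13. This median was 0.18 with total counts (8 called higher, against 9.06% of all genes) and 0.13 with median-ratio size factors. After the span correction it was 0.08 (2 called higher, against 3.30% of all genes). All 6 H3K4 demethylases had a positive log2FC. *Kdm5a* (JARID1A), which removes H3K4 trimethylation and was first found as a partner of the retinoblastoma protein, ranged from 25.5 to 41.4 RPM in controls (median 34.0) and from 37.1 to 45.5 RPM in LSD-treated rats (median 41.5). The groups overlapped, with 5 treated rats above the highest control, and the log2FC was 0.30 (SE 0.073, adjusted p = 0.0119, edgeR). The 5 other H3K4 demethylases did not pass with edgeR and TMM, but *Kdm1a* passed with DESeq2 (adjusted p = 0.0333) and with total counts (0.0281), and *Kdm5b* with total counts (0.0383). *Kdm1a*, the amine oxidase of the CoREST complex (its alias LSD1 has nothing to do with the drug), had 58.6 ± 2.04 RPM in controls and 62.6 ± 2.92 in LSD-treated rats (SD, n = 10), a log2FC of 0.10 (adjusted p = 0.0796), with 7 treated rats above all controls. *Kdm5b* had a log2FC of 0.15 (adjusted p = 0.107), and *Kdm5c*, an X-linked gene of intellectual disability, of 0.13 (adjusted p = 0.255).

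Demethylases of H3K9 and H3K36 held the remaining 4 up-regulated genes, of 10. *Kdm3a*, which removes mono- and dimethylation of H3K9, ranged from 27.8 to 37.1 RPM in controls (median 32.0) and from 35.3 to 45.0 RPM in LSD-treated rats (median 39.0), and 7 treated rats were above all controls. Its log2FC was 0.25 (SE 0.055, adjusted p = 0.00773). *Jmjd1c*, a large relative of *Kdm3a* whose demethylase activity is debated, ranged from 43.6 to 72.5 RPM in controls (median 62.3) and from 68.1 to 81.6 RPM in LSD-treated rats (median 74.7), with a log2FC of 0.29 (SE 0.068, adjusted p = 0.010). *Kdm7a*, which reads H3K4 trimethylation through its PHD finger and acts on H3K9 and H3K27, ranged from 14.0 to 23.1 RPM in controls (median 18.7) and from 20.2 to 30.4 RPM in LSD-treated rats (median 24.0), with a log2FC of 0.35 (SE 0.098, adjusted p = 0.0218). *Kdm4c*, a demethylase of trimethylated H3K9 and H3K36, ranged from 4.26 to 9.49 RPM in controls (median 7.26) and from 7.52 to 11.8 RPM in LSD-treated rats (median 9.41), from 46 to 315 reads per rat. For *Kdm4c* all LSD-treated rats lay above the control median, and the log2FC was 0.38 (SE 0.12, adjusted p = 0.0308, edgeR). The call for *Kdm4c* was lost when LSD replicate 4, 7 or 8 or control replicate 1, 4 or 9 was left out, with adjusted p-values up to 0.0571. After the span correction *Kdm7a* (0.26, adjusted p = 0.066) and *Kdm4c* (0.28, adjusted p = 0.107) no longer passed, whereas *Kdm3a* (0.20, adjusted p = 0.0152), *Jmjd1c* (0.19, adjusted p = 0.0221) and *Kdm5a* (0.22, adjusted p = 0.0266) did. *Kdm4a*, of the same family as *Kdm4c*, had a log2FC of -0.03 (SE 0.056).

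The H3K27 demethylases differed in depth. *Kdm6b* (JMJD3) was counted with 501 to 1157 reads per rat and had a log2FC of 0.06 (SE 0.11, adjusted p = 0.745). *Kdm6a* (UTX) had only 2 to 37 reads per rat, with 0.643 ± 0.345 RPM in controls and 1.07 ± 0.271 in LSD-treated rats (SD, n = 10). All 10 LSD-treated rats were above the control median of *Kdm6a*, but its log2FC of 0.69 had a SE of 0.24 and did not pass the test (adjusted p = 0.0569). Of the 4 other JmjC proteins, 2 were down-regulated. *Jmjd8*, a protein of the endoplasmic reticulum for which no demethylase activity is established, ranged from 47.4 to 62.2 RPM in controls (median 57.4) and from 42.1 to 54.0 RPM in LSD-treated rats (median 48.4; log2FC -0.24, SE 0.052, adjusted p = 0.00765). *Jmjd6*, best known as a lysyl hydroxylase of splicing factors, ranged from 14.1 to 18.3 RPM in controls (median 15.5) and from 12.2 to 15.2 RPM in LSD-treated rats (median 14.0), with a log2FC of -0.21 (SE 0.060, adjusted p = 0.0237). Scaling by total counts ended the call of *Jmjd6* (adjusted p = 0.0823), and so did the span correction (adjusted p = 0.13). Neither *Jmjd8* nor *Jmjd6* is an established histone lysine demethylase.

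Levels of the PRMT and Kdm families were averaged within each rat, from the same reads as the log2FCs above, so they restate those differences rat by rat. Mean log2(RPM + 1) over the 8 PRMTs was 5.62 ± 0.04 in LSD-treated rats and 5.73 ± 0.08 in controls (SD, n = 10), and no LSD-treated rat lay above the control median. Over the 17 Kdm members it was 5.09 ± 0.04 in LSD-treated rats and 4.94 ± 0.11 in controls, and all 10 treated rats lay above the control median. The values of both families overlapped between the groups, and control replicates 7, 8 and 10 lay within the range of the treated rats in both. Within each rat, Spearman's rho across genes between genomic span and the level relative to all rats was positive in all 10 LSD-treated rats, from 0.0743 to 0.291. In controls it ran from -0.434 to 0.113 and was positive in replicates 7, 8 and 10 alone, and its part in the family means was not tested. As these families were compared with earlier results of the same rats known, the means are given as a description without a test.

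**Figure D3:**
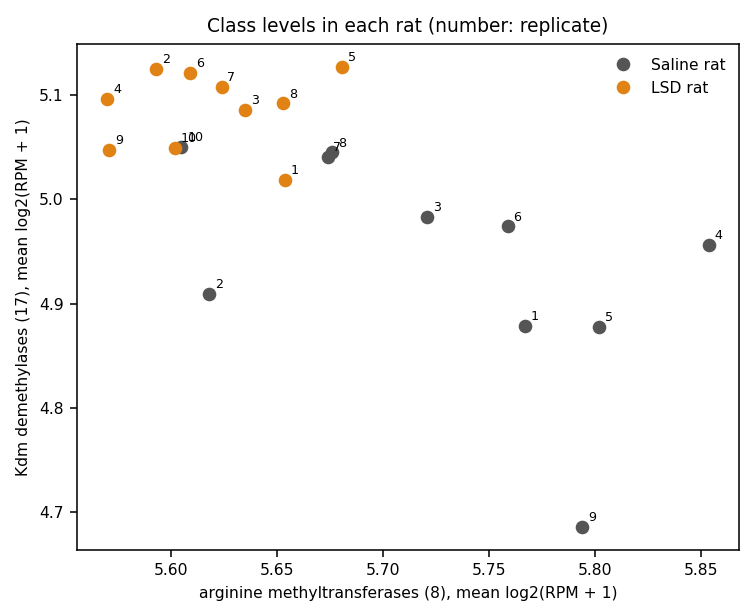
Mean log2(RPM + 1) of the 8 arginine methyltransferases (x axis) and of the 17 Kdm demethylases (y axis) in each rat, numbered by replicate. LSD rats (orange) lie at the upper left, Saline rats (grey) spread to the lower right, and Saline replicate 9 has the lowest Kdm level, 4.69.

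Treated rats varied less among themselves. The coefficient of variation was larger in controls for 61 of the 73 members (83.6%), against 77.5% of all genes tested. Its median over the members was 7.73% in LSD-treated rats and 12.8% in controls, and over all genes tested 12.4% and 16.3%, so that the lower spread was not particular to the members. For the Kdm series it was larger in controls for 16 of 17 genes. Among LSD-treated rats, replicate 10 was the lowest in 23 members (31.5%, against 16.2% of all genes), which include *Kmt2a*, *Kmt2b*, *Kmt2d*, *Setd1b* and *Setd2*.

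To compare members without any scaling between libraries, the ratio of reads of related enzymes was taken within each library. Of 15 pairs listed, 14 had both members past the filter, and their log2 ratios were compared by an exact two-sided permutation test over all 184756 splits of the rats with Benjamini-Hochberg adjustment over the 14 pairs. The ratio of *Kmt2a* to *Kmt2b* was higher in LSD-treated rats, with a mean log2 ratio of 0.56 ± 0.14 against 0.34 ± 0.15 in controls (SD, n = 10; difference 0.22, adjusted p = 0.0298, exact permutation test), and it exceeded the control median in 9 of 10 treated rats. For *Kdm3a* to *Kdm3b* the mean log2 ratio was -0.47 ± 0.11 in LSD-treated rats and -0.59 ± 0.06 in controls (difference 0.12, adjusted p = 0.0298, exact permutation test), with 8 of 10 treated rats above the control median. For *Kdm3b* alone the log2FC was 0.13 (adjusted p = 0.0642, edgeR). Both calls were lost when LSD replicate 3, 7, 8, 9 or 10 or control replicate 1, 4, 5 or 9 was left out, and that of *Kmt2a* to *Kmt2b* also without LSD replicate 2, with adjusted p-values up to 0.06. After the span correction the difference was 0.13 for *Kmt2a* to *Kmt2b* (adjusted p = 0.165) and 0.14 for *Kdm3a* to *Kdm3b* (adjusted p = 0.0256, exact permutation tests).

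The other 12 pairs did not pass. *Kmt2c* to *Kmt2d*, *Ehmt1* to *Ehmt2* and *Prmt1* to *Prmt8* had differences of 0.25, 0.21 and -0.13 with the same adjusted p of 0.0581, and *Kdm6a* to *Kdm6b* had 0.79 (adjusted p = 0.0611, exact permutation tests). In *Prmt1* to *Prmt8*, none of the 10 LSD-treated rats was above the control median. *Ezh1* to *Ezh2*, the pair that exchanges the catalytic subunit of PRC2, had a mean log2 ratio of 5.54 ± 0.39 in LSD-treated rats and 5.69 ± 0.51 in controls (SD, n = 10), a difference of -0.14 (adjusted p = 0.52, exact permutation test).

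**Figure D4:**
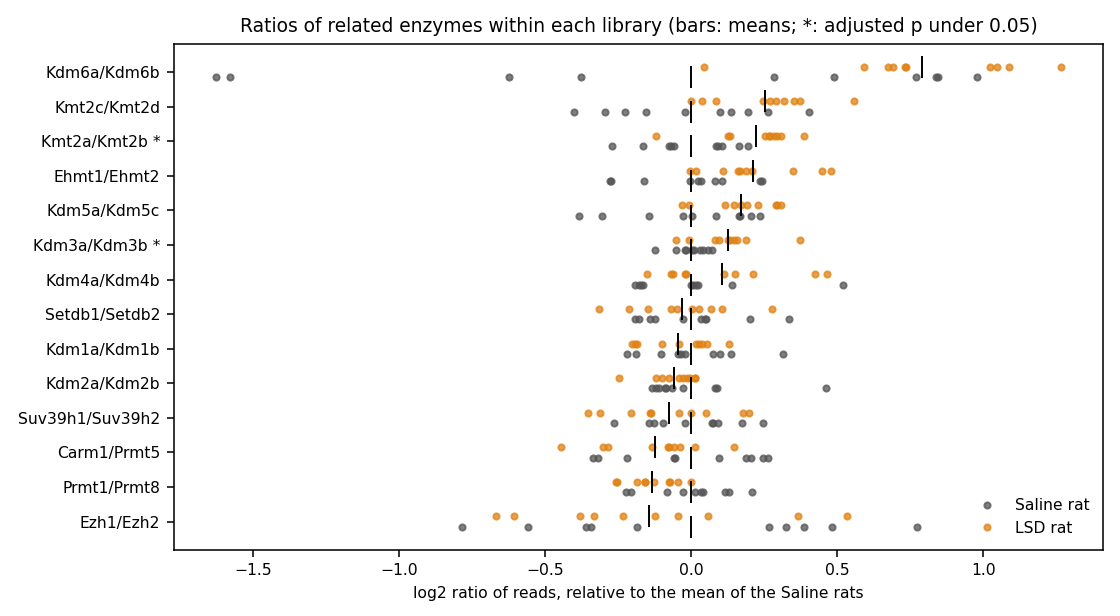
Log2 ratio of reads of related enzymes in each library (x axis, relative to the mean of the Saline rats), with Saline rats in grey, LSD rats in orange and means as black bars. An asterisk marks the ratios with an adjusted p under 0.05, *Kmt2a* to *Kmt2b* and *Kdm3a* to *Kdm3b*; *Kdm6a* to *Kdm6b* has the largest difference, 0.79, and the widest spread.

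Many of these enzymes are encoded by long genes, and log2FCs across genes increased with genomic span (the distance from the first to the last annotated base). Span was taken from the GRCr8 annotation of RefSeq, which has an entry for all 73 members. Spearman's rho between span and log2FC was 0.50 across the members and 0.36 across the 14929 genes with a span, as a description across genes that share the same libraries. The 10 up-regulated members had a median span of 120580 bases and the 5 down-regulated members one of 10214 bases, with *Kmt2c* at 402268 and *Jmjd8* at 2933. When each rat's counts were corrected for span, with offsets centred in each rat, 9 of the 15 calls were kept. These were *Kmt2c*, *Nsd1*, *Kdm3a*, *Kdm5a* and *Jmjd1c* among the up-regulated and *Prmt1*, *Prmt2*, *Prmt8* and *Jmjd8* among the down-regulated genes. Under this correction 10.2% of all genes tested passed (3.30% higher and 6.87% lower), and 5 of the 73 members were higher and 5 lower, *Prmt7* included. With the replicate block added, 6 members were higher and 5 lower, against 4.48% and 8.24% of all genes. Among the called PRMTs, *Prmt1* spans 10214 bases, *Prmt2* 28709 bases and *Prmt8* 82051 bases. Over all 8 PRMTs the median was 47746 bases, against 49371 bases over all members. With the span correction 4 of the 8 passed, all lower. The part of span in the differences of the PRMTs was not tested.

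**Figure D5:**
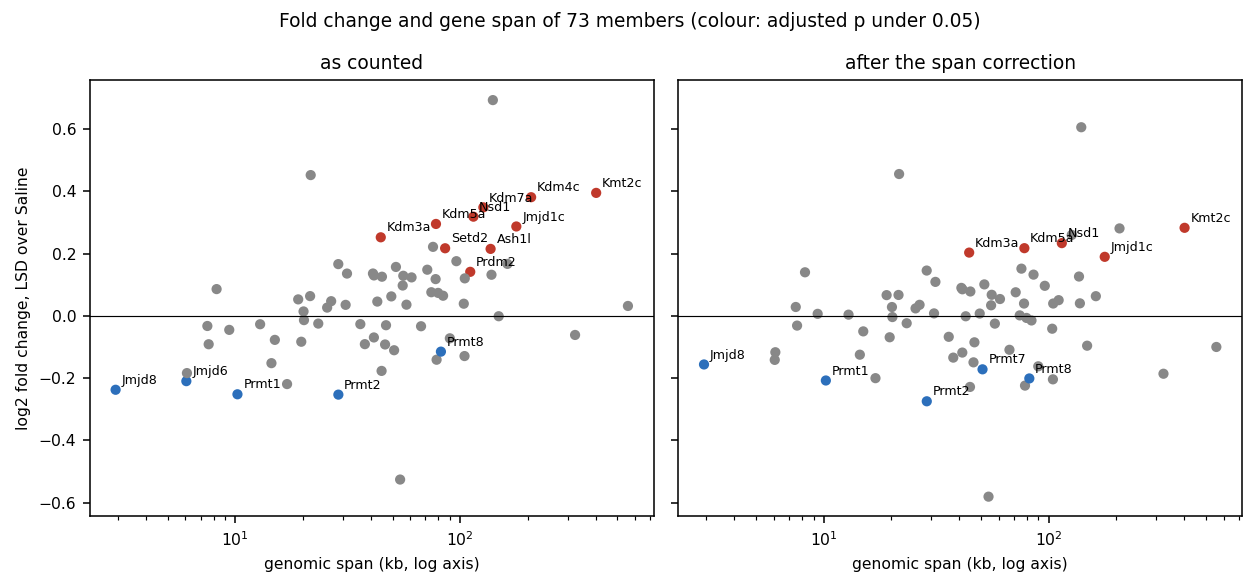
Log2 fold change (y axis) of the 73 members against genomic span in kilobases (x axis, log scale), as counted on the left and after the span correction on the right, with genes past an adjusted p of 0.05 in red (higher) or blue (lower). Of the 15 called genes on the left, 9 are also called on the right, where *Prmt7* joins them.

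For a view of where transcription of the called enzymes starts, the 250 bases before the annotated start of each gene were read from RefSeq's GRCr8 promoters, which hold an entry for 60 of the 73 members and for 14 of the 15 called ones. The up-regulated genes had 13 to 45 CpG dinucleotides in this window (9 genes, median 23.0), the down-regulated genes 7 to 26 (5 genes, median 16.0), and all members a median of 19.0, against 15.0 for the genes past the filter. A GC box (GGGCGG, on either strand) was present in 6 of the 9 and 3 of the 5, in 63.3% of the members and in 55.6% of genes past the filter. The CCAAT box (CCAAT) was found in 2 of the 9 and 3 of the 5, in 41.7% of the members and in 34.6% of genes past the filter, and among all 27457 promoters of the table the GC box was in 32.4% and the CCAAT box in 34.3%. None of the 14 called genes with an entry had the full CRE (TGACGTCA), which was in 3.33% of the members, 2.71% of genes past the filter and 1.7% of all promoters. None had a TATA box (TATAAA), present in 5.0% of the members, 6.81% of genes past the filter and 13.1% of all promoters. Among these 14, *Kdm4c* alone had an E-box (CACGTG), found in 6.67% of the members, 7.78% of genes past the filter and 5.79% of all promoters. These letters are a description and do not show that a factor binds. The windows of the up-regulated and down-regulated genes with the smallest p-values, with any matches to these 5 motifs in capitals, were *Kmt2c* (GRCr8 chr4:10354227-10354476, plus strand, 45 CpG), *Kdm3a* (chr4:105233371-105233620, minus strand, 19 CpG), *Prmt1* (chr1:104604546-104604795, minus strand, 14 CpG) and *Jmjd8* (chr10:15353243-15353492, plus strand, 7 CpG).
Kmt2c: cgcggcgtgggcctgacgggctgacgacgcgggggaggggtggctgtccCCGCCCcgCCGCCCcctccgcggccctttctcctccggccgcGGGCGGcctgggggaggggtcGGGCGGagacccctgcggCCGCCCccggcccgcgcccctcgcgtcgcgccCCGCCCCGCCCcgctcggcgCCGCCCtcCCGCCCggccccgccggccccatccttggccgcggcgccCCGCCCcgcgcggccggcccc
Kdm3a: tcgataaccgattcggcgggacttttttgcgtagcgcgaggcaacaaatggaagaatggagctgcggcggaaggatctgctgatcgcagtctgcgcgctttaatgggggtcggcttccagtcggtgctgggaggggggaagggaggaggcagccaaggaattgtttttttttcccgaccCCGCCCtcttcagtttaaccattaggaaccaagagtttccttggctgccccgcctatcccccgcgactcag
Prmt1: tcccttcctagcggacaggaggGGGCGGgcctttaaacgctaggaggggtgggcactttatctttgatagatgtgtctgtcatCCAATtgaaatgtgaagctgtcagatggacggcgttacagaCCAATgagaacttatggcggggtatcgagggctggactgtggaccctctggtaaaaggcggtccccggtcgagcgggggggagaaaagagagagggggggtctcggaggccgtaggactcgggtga
Jmjd8: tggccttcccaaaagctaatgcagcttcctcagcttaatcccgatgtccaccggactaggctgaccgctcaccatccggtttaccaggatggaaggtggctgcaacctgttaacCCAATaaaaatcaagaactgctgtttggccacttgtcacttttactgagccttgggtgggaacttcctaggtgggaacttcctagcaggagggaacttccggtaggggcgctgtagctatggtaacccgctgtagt
The window of *Kmt2c* held 10 overlapping or separate matches to the GC box and that of *Jmjd8* none, while *Prmt1* held 2 CCAAT boxes and 1 GC box and *Kdm3a* 1 GC box.

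Genes that work with these enzymes were examined from lists of partners. Of 77 partners and related enzymes past the filter, 9 were up-regulated and 3 down-regulated (15.6%), close to the 15.0% of all genes, with a median log2FC of 0.02. Among enzymes outside the symbol rule, *Whsc1l1* (NSD3), a further H3K36 methyltransferase, had 77.8 ± 8.42 RPM in controls and 92.5 ± 4.34 in LSD-treated rats (SD, n = 10), with a log2FC of 0.25 (adjusted p = 0.00888) and all 10 treated rats above the control median. *Whsc1* (NSD2) had 0.12 and did not pass (adjusted p = 0.083). *Whsc1* and *Phf1* are named after their values were seen. *Ntmt1*, which methylates the amino terminus of proteins, was lower (-0.24, adjusted p = 0.0226). Of 10 PRC2 partners, 3 were up-regulated and 1 down-regulated, while neither catalytic subunit passed. *Suz12*, a core subunit required for PRC2 activity, had a log2FC of 0.34 (18.6 ± 3.49 RPM in controls and 23.6 ± 2.90 in LSD-treated rats, SD, n = 10, adjusted p = 0.0223), *Mtf2*, which recruits PRC2 to CpG islands, of 0.24 (adjusted p = 0.0332), and *Lcor* of 0.29 (adjusted p = 0.0408). *Phf1*, the lower member of this list, had -0.18 (adjusted p = 0.0491). After the span correction 1 of the 10 PRC2 partners passed, *Suz12* (adjusted p = 0.0482), and the calls of *Mtf2* (0.0772), *Lcor* (0.0984) and *Phf1* (0.228) were lost.

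Of 15 COMPASS partners, which assemble with Kmt2 and Setd1 enzymes, 1 was up-regulated, *Bod1l1* (0.27, adjusted p = 0.0154). *Zfp644*, a zinc finger partner of G9a and GLP, was the only call among 10 partners of H3K9 enzymes (0.29, SE 0.049, adjusted p = 0.00357). No partner of Kdm1a passed (0 of 11 with edgeR, 2 with an unadjusted p under 0.05), with 0 calls from DESeq2 and 1 with scaling by total counts. Of 10 partners of Dot1l and Prmt5, *Aff4* (0.29, adjusted p = 0.00899) and *Mllt3* (0.22, adjusted p = 0.0385) were up-regulated, and the span correction ended the call of *Mllt3* (adjusted p = 0.374) but not that of *Aff4* (adjusted p = 0.0152). In methyl donor supply, *Mtr*, methionine synthase, had a log2FC of 0.45 (7.98 ± 1.53 RPM in controls and 10.9 ± 0.909 in LSD-treated rats, SD, n = 10, adjusted p = 0.00697), and *Ahcy*, which removes the S-adenosylhomocysteine that inhibits methyltransferases, was lower by the same test (51.4 ± 5.27 RPM in controls and 43.1 ± 2.36 in LSD-treated rats, log2FC -0.25, adjusted p = 0.00755). No LSD-treated rat was above the control median for *Ahcy*, and all 10 were for *Mtr*. Both also passed after the span correction, with adjusted p-values of 0.0121 each.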

How the data were processed

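RNA was sequenced from the mPFC of 20 rats, 1 library per rat. The authors aligned reads to rn6 with HISAT2 and deposited raw HTSeq counts per gene, named by symbol. The 5 summary rows of HTSeq, 25.5% to 29.0% of reads, were left out. The 16605 genes that reached 5 reads in 10 or more rats were tested with edgeR 4.0.16 (TMM, quasi-likelihood F-test, group as the only term, Benjamini-Hochberg adjustment, threshold 0.05), in R 4.3.3. Members, lists of partners and markers, and pairs were chosen with earlier results of these data known. Named genes were all called members, a list of well-known enzymes whatever their result, members of called pairs, and at most 3 called genes per partner list. Genes named outside this rule are pointed out. Pair ratios used log2(reads + 0.5). The span correction removed each rat's trend of counts with gene span, in 50 bins smoothed over 5, by offsets centred in each rat. Span and promoters came from RefSeq (GRCr8), matched by symbol. Alternatives were median-ratio and total-count scaling, no read filter, a filter of 20 reads in 10 rats, DESeq2 1.42.0, replicate number as a block and each rat left out. On simulated counts of 16491 genes, changed ones included, edgeR called 31 of 100 genes changed 1.25-fold, 70 of 100 changed 1.5-fold and 2 unchanged genes. These counts were drawn for each gene apart, without a trend with span, so the 2 calls do not measure the error rate in the rats. No transcript lengths were used, so levels are not compared between genes. *Setd1a* was not analysed here, as the matrix has no row under this symbol.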

Additional observations from a re-analysis of the deposited data

Results flagged for a closer look

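Single rats stood apart from the other 9 of their group in 5 of the 72 sets of levels screened for the named enzymes, where chance gives about 1 in 20. In control replicate 9, *Kmt2c* was at 18.93 RPM, against 26.3 to 35.52 RPM in the other controls. *Nsd1* was at 43.71 RPM in the same rat and at 60.89 to 85.72 RPM in the other controls. Its level of *Kdm5c* was 37.16 RPM, below the range of 50.71 to 62.42 RPM in the rest. By contrast, *Prmt5* was highest in this rat, at 74.63 RPM against 59.68 to 67.23 RPM. The remaining set was *Kdm5b* in LSD replicate 10, at 68.94 RPM against 76.53 to 85.86 RPM in the other LSD-treated rats. In control replicate 9 Spearman's rho between gene span and the rat's log2 level relative to all rats was -0.434, the lowest of the 20, and its mean correlation with the other libraries was the lowest as well (0.986). The part of these properties in the levels was not tested. Without this rat, 12 members passed, 8 higher and 4 lower. The share of all genes that passed in this fit is not given here, so the count does not show a change particular to the members.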

How the results depend on the processing

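With median-ratio size factors 14 of the 15 members called were kept and *Prdm2* was lost. DESeq2 kept all 15 and added *Ehmt2*, *Kdm1a*, *Kdm3b* and *Smyd5*. With total counts 13 were kept and *Kdm1a*, *Kdm2b*, *Kdm3b*, *Kdm5b* and *Setdb1* added, and the called demethylases were 9 higher and 1 lower. Without a read filter 12 were kept and 1 demethylase was lower. The span correction left 2 methyltransferases higher, 3 demethylases higher and 1 lower, and 1 called pair ratio. Methyltransferases called lower numbered 5 with DESeq2, and 5 with the span correction and the replicate block, where 2 methyltransferases were higher and 0 demethylases lower. Each gene's log2 level was taken relative to its group mean and correlated between LSD-treated rats and controls. For the same replicate number the mean correlation was 0.145, against -0.0157 for different numbers. It was over 0.1 in 6 of 10 same-number pairs, and 1 LSD-treated rat was closest to its own number. Whether the numbers pair the rats was not tested. The replicate block kept 13 calls, lost *Prdm2* (adjusted p = 0.0501) and *Prmt8* (0.0656), added *Ehmt2* (0.0343) and *Kdm6a* (0.0426), and called 5 pair ratios.

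Leaving out each rat gave 3 to 7 methyltransferases higher and 2 to 7 lower, 4 to 7 demethylases higher and 2 lower, 8 to 17 partners and 0 to 6 pair ratios. Shares of all genes are not given for these fits, so the counts cannot be set apart from changes in all genes. Methyltransferases called higher fell to 3 without LSD replicate 4 or 8 or control replicate 4, and those called lower rose to 5 without LSD replicate 1 and to 7 without control replicate 2. Partners fell to 8 without LSD replicate 8 or control replicate 1 or 3. Of the 15 calls, 11 were kept in all 20 fits, the exceptions being *Ash1l*, *Kdm4c*, *Prdm2* and *Prmt8*.

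Some uncalled values near 0 changed sign. With total counts *Ehmt1* was 0.0458, *Suv39h1* 0.0164, *Ezh1* 0.0189, *Prmt5* 0.000396 and *Kdm4a* 0.0176. *Ehmt1* was 0.0157 without a filter, 8.955e-05 with at least 20 reads and 0.0022 with the replicate block. After the span correction *Suv39h1* was 0.0037, *Prmt5* 0.0063 and the ratio of *Setdb1* to *Setdb2* 9.748e-05, and with the replicate block added *Suv39h1* was 0.0025 and *Prmt5* 0.0060. With a rat left out, log2 fold changes ran from -0.0295 to 0.0196 for *Ehmt1*, from -0.0144 to 0.0692 for *Setd1b* and from -0.0319 to 0.0582 for *Kmt2b*, and the ratio difference of *Setdb1* to *Setdb2* from -0.0658 to 0.0053. The cause was not tested.
Depth limits *Kdm6a*, *Ezh2* and *Prdm9* most, with fewer than 100 reads in each rat.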
